A study of Mus musculus with 4 samples.

Results

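The tumour necrosis factor (TNF) superfamily and the regulators of NF-kB were followed in 1 RNA sequencing library of mouse respiratory basal cells (RBCs) and 3 libraries of mouse olfactory horizontal basal cells (HBCs). Members were the rows of the deposited table whose symbol begins with Tnfsf, Tnfrsf or Tnfaip and a digit, is Traf with a single digit, begins with Nfkb, or is Tnf, Lta, Ltb, Ltbr, Fas, Fasl, Rel, Rela, Relb, Ikbkb, Ikbkg, Ikbke or Chuk. This gave 67 of 23281 listed genes. The RBCs were microdissected, sorted as TdTomato+ and taken directly from KRT5-CreER;Ai9-fl(stop)TdTomato mice, in which the keratin 5 promoter drives the inducible Cre and so decides which cells can carry the reporter. The HBCs came from wildtype mice and had been cultured to passage 3 under control conditions, and the labels give no sort for them. Tissue, culture and genotype thus all differ between the groups and cannot be told apart, and neither the animals behind each library nor their age is given in the labels.

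TNF superfamily ligands are mostly trimeric proteins on the surface of cells or shed from it, and they bind receptors that either carry a death domain or recruit TRAF adaptor proteins. Both routes can activate the IkB kinases (IKK), which mark IkB proteins for destruction and so free NF-kB dimers to enter the nucleus. In the canonical branch Rela and the Nfkb1 product act together, and in the non-canonical branch Chuk leads to processing of the Nfkb2 product, which then acts with Relb. NF-kB switches on several of its own inhibitors, among them Nfkbia and Tnfaip3, and in surface epithelia it is known for control of inflammatory genes and of survival.

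Values are depth-scaled FPKM, that is, fragments per kilobase of transcript as deposited, divided by 1 factor per library, so levels may be compared between genes. Genes entered the test if their RBC value and HBC mean averaged 1 or more. A gene was called at a limma adjusted p under 0.05 (Benjamini-Hochberg over the 16440 genes tested) and a change of at least 2-fold on the log2(value + 1) scale, RBC minus HBC. The single RBC library has no replicate and was assumed to vary as the HBC libraries do. Nothing in the labels says that the HBC libraries came from separate animals or cultures, so p-values measure only the spread between these libraries, which may be technical. In bulk RNA, fewer cells of a type and less RNA per cell cannot be told apart.

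Basal cell genes were present in both groups, with 14 of 14 listed markers at 10 or more. Of these, 9 were called higher in RBCs (64.3%, where 34.2% of all genes were) and 1 higher in HBCs. The basal list summed to 96640 in RBCs and 39720 to 40720 in HBCs. Markers of other cells were also read. The RBCs were sorted as TdTomato+, and the keratin 5 promoter drives the Cre that decides which cells can carry the reporter. Of the tested markers, 10 of 12 for T, NK and innate lymphoid cells, 2 of 5 for B and plasma cells, 18 of 22 for myeloid cells, 13 of 16 for fibroblasts and 11 of 14 for endothelium were called higher in RBCs, where 34.2% of all genes were. Many of these markers were under 1 in HBCs and entered the test only through RBCs, which bears on 8 of the 10 lymphoid, 2 of the 2 B cell, 13 of the 18 myeloid, 5 of the 13 fibroblast and 9 of the 11 endothelial calls. Where both groups were at 1 or more, 2 of 3 lymphoid, 0 of 3 B cell, 5 of 9 myeloid, 8 of 11 fibroblast and 2 of 3 endothelial markers were called higher in RBCs. The share over all such genes was 24.0%. The summed level of the lymphoid list was 76.4 in RBCs and 8.87 to 10.3 in HBCs, with 4 of its 17 listed genes at 0 in RBCs, Cd3d, Cd8a, Cd8b1 and Klrd1. The B cell list summed to 2007 in RBCs and 1259 to 1340 in HBCs, nearly all of it Xbp1, with Pax5 and Fcer2a at 0 in RBCs. For the myeloid list the sum was 18930 in RBCs and 3403 to 3585 in HBCs, with Lyz2 at 14770 and Ptprc at 10.5 in RBCs, and no listed gene at 0 there. Fibroblast genes summed to 7906 in RBCs and 95.8 to 116 in HBCs, and endothelial genes to 177 in RBCs and 95.3 to 147 in HBCs. Markers of olfactory sensory neurons (11 of 12), of sustentacular and Bowman's gland cells (8 of 10) and of ciliated cells (9 of 10) were also called higher in RBCs, of which 6, 5 and 4 entered only through RBCs. With both groups at 1 or more, these were 5 of 6, 3 of 5 and 5 of 6. The part of these cells in the results on members was not tested.

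Of the 67 members, 59 passed the filter on low values. Among them 13 were called higher in the RBC library (22.0%, where 34.2% of all tested genes were), 14 were called higher in the HBC libraries (23.7%, where 12.8% of all tested genes were) and 32 were not called. For 8 members the lower group was under the minimum of 1, so that they entered the test only through the higher group, which bears on 5 of the 13 calls (Tnfrsf13b, Tnfrsf14, Tnfrsf17, Tnfrsf25 and Tnfaip8l2) and on 1 of the 14 (Tnfrsf9). Where both groups were at 1 or more, 8 of 51 members were called higher in RBCs (15.7%, and 24.0% of all such genes) and 13 higher in HBCs (25.5%, and 14.4% of all such genes). The median log2 change was 0.31 for the members tested and 0.45 for all genes tested. The medians turned to -0.23 for members and -0.08 for all genes when the libraries' medians were set equal, and to -0.52 and -0.13 under quantile normalization. Of the uncalled members, 29 had an absolute log2 change under 1, and 16 of the 32 nonetheless had an adjusted p under 0.05. Levels of 100 or more were reached by 31 members in RBCs and 34 in HBCs, and 28 of these were the same genes. In the 34 members that averaged 100 or more in HBCs, the SD between HBC libraries was 0.666% to 15.2% of the mean, with a median of 3.92%. In the plot of every member by library, the 3 HBC circles nearly coincide in these genes and scatter widely near 0.

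**Figure D1:**
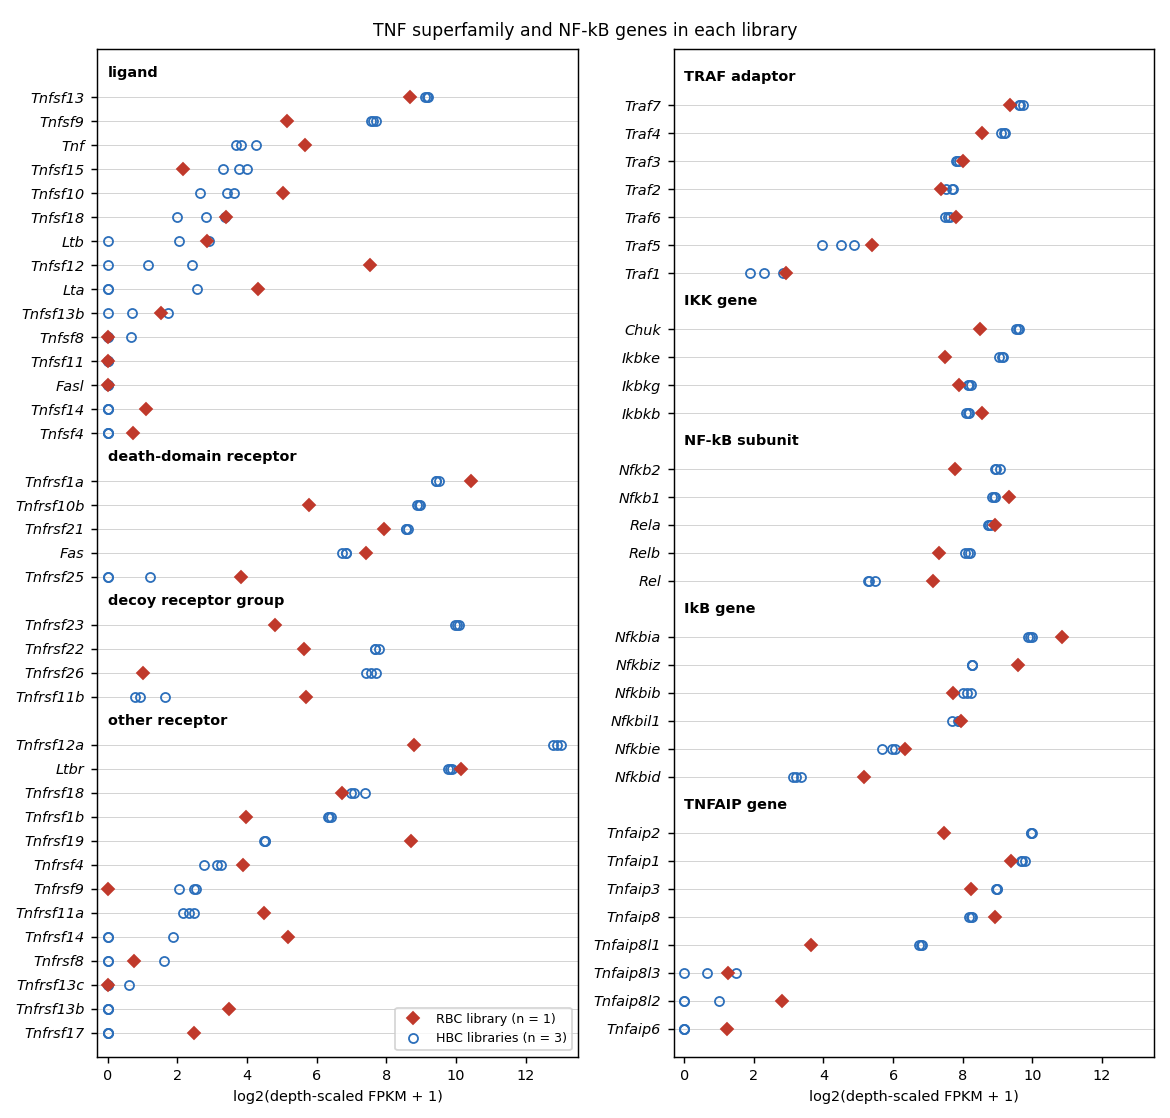
Depth-scaled FPKM of all 67 members on a log2(value + 1) axis, by role, with the RBC library as red diamonds and each of the 3 HBC libraries as a blue circle. Tnfrsf12a, at 7099 to 8188, is the highest member in HBCs, and Nfkbia, at 1835, the highest in the RBC library.

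Among the 15 ligands, 10 were tested, with 2 called higher in RBCs, 2 called higher in HBCs and 6 not called. Tnfsf13 (APRIL, a ligand best known for supporting B and plasma cells) was the most abundant ligand in every library. It was at 406 in the RBC library, against 572, 551 and 580 in HBC libraries 1, 2 and 3, a difference under 2-fold (log2 change -0.48). Tnfsf13 made up 54.5% of the summed ligand values in RBCs and 68.6% to 70.7% in HBCs. Tnfsf12 (TWEAK, the ligand of the receptor Tnfrsf12a) was at 182 in the RBC library, against 4.39e-12, 4.37 and 1.24 in HBC libraries 1, 2 and 3. It was called higher in RBCs (log2 change 6.32, SE 1.21, limma adjusted p = 0.027), and the call was lost without HBC library 1 (adjusted p = 0.0535) or 3 (0.105) and with a pseudocount of 0.1 (0.101), and its adjusted p ran from 0.00552 to 0.105 across settings. Tnfsf12 and Tnfsf13 are neighbours with a joint transcript in GENCODE M21, which contains 46.8% and 57.3% of their 50-base windows, so the split of reads between them is uncertain.

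Tnf itself, the founding inflammatory cytokine, was low in all libraries. It was at 49.7 in the RBC library, against 13.1, 11.8 and 18.3 in HBC libraries 1, 2 and 3. RBCs thus stood above all 3 HBC values, 3.45-fold over their mean (log2 change 1.74, SE 0.32, limma adjusted p = 0.0244). The call of Tnf was lost without HBC library 1 (adjusted p = 0.096) or 2 (0.0756) and under quantile normalization (0.761), and its adjusted p ran from 0.0171 to 0.761 across settings. The lymphotoxin genes, whose products act in lymphoid tissue, were low as well. Lta was at 18.8 in RBCs, against 4.91, 0 and 0 in HBCs (adjusted p = 0.133), and of the 12 alternatives it passed only without HBC library 1 (log2 change 4.31, adjusted p = 0.000285), where the others gave 0.0614 to 0.478. Ltb was at 6.24 in RBCs, against 6.5, 3.12 and 0 in HBCs, so the groups overlapped (adjusted p = 0.511).

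Tnfsf9 (4-1BB ligand, a costimulator of T cells) and Tnfsf15 (TL1A, the ligand of Tnfrsf25) were called higher in the cultures. Tnfsf9 was at 34.3 in the RBC library, against 205, 188 and 195 in the HBC libraries, and was 5.72-fold lower in RBCs (log2 change -2.48, SE 0.07, limma adjusted p = 0.000777). Tnfsf15 was at 3.45 in RBCs, against 8.88, 14.9 and 12.6 in HBCs (adjusted p = 0.04), and its call was lost with values as deposited (0.109), with no filter (0.0628) and without HBC library 2 (0.0903) or 3 (0.133), its adjusted p running from 0.00422 to 0.133 across settings. Tnfsf10 (TRAIL, a ligand that can trigger cell death) was at 31.4 in RBCs, against 11.3, 5.32 and 9.70 in HBCs, and did not pass (adjusted p = 0.0612). It was called under 4 alternatives (adjusted p = 0.0364 without HBC library 2), within a range of 0.0364 to 0.619, and its log2 change of 1.79 turned to -0.24 under quantile normalization. Tnfsf18 and Tnfsf13b (BAFF, a survival factor of B cells) stood below 10 in all libraries and were not called. Fasl and Tnfsf11 (RANKL, the ligand that drives osteoclast formation) were listed at 0 in all 4 libraries, and Tnfsf4, Tnfsf8 and Tnfsf14 stayed at or below 1.12 in all of them.

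The summed level of the receptor genes was 4183 in the RBC library and 11460 to 12490 in the HBC libraries. Of 22 receptors, 20 were tested, with 7 calls towards RBCs (35.0%, and 34.2% of all genes) and 7 towards HBCs (35.0%, and 12.8% of all genes). In the cultures much of the sum was Tnfrsf12a (Fn14, the TWEAK receptor, known to be induced in injured and growing epithelium). It was at 444.5 in the RBC library, against 7635, 7099 and 8188 in HBC libraries 1, 2 and 3. All 3 HBC libraries lay far above the RBC value, which was 17.2-fold lower than their mean (log2 change -4.10, SE 0.10, limma adjusted p = 0.000649). Tnfrsf12a made up 10.6% of the summed receptor values in RBCs and 62.0% to 65.6% in HBCs. Its ligand gene Tnfsf12 had the opposite call, higher in RBCs.

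Death-domain receptors had 1 call in each direction and 3 members not called. Tnfrsf10b (the mouse TRAIL receptor that signals death) was at 53.8 in the RBC library, against 467, 495 and 484 in the HBC libraries. RBCs were 8.97-fold lower (log2 change -3.14, SE 0.04, limma adjusted p = 0.000193). Tnfrsf25 (DR3, the receptor of TL1A) was at 13.2 in RBCs, against 0, 0 and 1.32 in HBCs. It entered the test only through its RBC level, and its call (adjusted p = 0.0308) was lost without HBC library 1 (0.103) or 2 (0.104), with a pseudocount of 0.1 (0.112) and under quantile normalization (0.339), within a range of 0.00033 to 0.339 over the alternatives. Tnfrsf1a (the main TNF receptor of most cells) was the second most abundant member in RBCs. It was at 1386 in the RBC library, against 686, 691 and 728 in the HBC libraries, a value 1.98 times the HBC mean and just under the 2-fold minimum (log2 change 0.98, adjusted p = 0.00196). It passed the minimum with values as deposited (log2 change 1.09), with equal sums (1.08), under quantile normalization (1.27) and without HBC library 3 (1.01). Fas, the receptor of Fas ligand, was at 170 in RBCs, against 114.5, 105 and 114 in HBCs, and Tnfrsf21 (DR6) was at 244 in RBCs, against 390, 379 and 376 in HBCs. Neither reached a 2-fold change, though Tnfrsf21 did so with the libraries' medians set equal (log2 change -1.15).

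In mice, Tnfrsf22 and Tnfrsf23 encode decoy TRAIL receptors that lack a death domain, and Tnfrsf26 is a related gene. All of these were called higher in the cultures under every alternative run. Tnfrsf23 was at 27.0 in the RBC library, against 996, 1081 and 1037 in HBC libraries 1, 2 and 3, and ranked second among members by HBC mean. RBCs were 38.4-fold lower (log2 change -5.21, SE 0.06, limma adjusted p = 0.000122). Tnfrsf22 was at 48.2 in RBCs, against 203, 220 and 203 in HBCs (log2 change -2.09, adjusted p = 0.00112). Tnfrsf26 was at 1.0 in RBCs, against 170, 188 and 208 in HBCs (log2 change -6.56, adjusted p = 0.000565). In GENCODE M21, 18.0% of the 50-base windows of Tnfrsf23 transcripts also occur in Tnfrsf22, and 17.3% of those of Tnfrsf22 in Tnfrsf23, so the split of reads between that pair is uncertain, while Tnfrsf26 shared no such window with another gene. Exons of Tnfrsf23 and Tnfrsf26 overlap a gene on the opposite strand, and the strand setting is not given. Such overlaps on the opposite strand touch 15 members, among them Nfkb2, Ikbke and Tnfaip2, whose reads cannot be told from the neighbour's without that setting. The soluble decoy Tnfrsf11b (osteoprotegerin, which binds RANKL and TRAIL) moved the other way, at 50.2 in the RBC library, against 0.888, 2.14 and 0.704 in the HBC libraries (log2 change 4.57, SE 0.47, adjusted p = 0.00777).

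**Figure D2:**
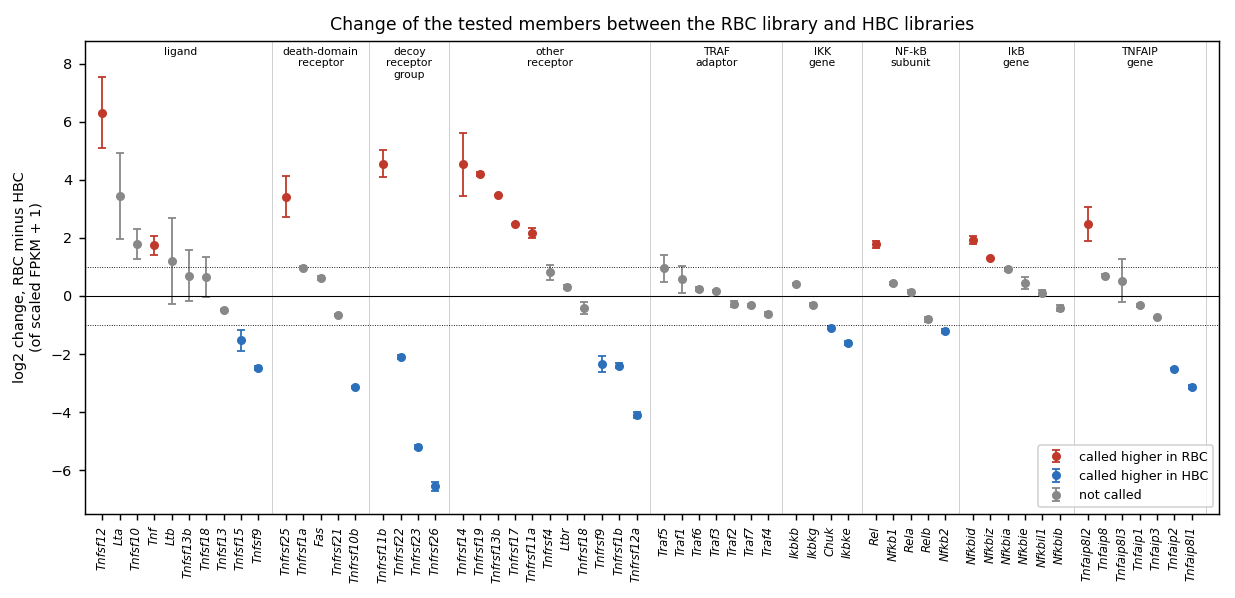
Log2 change, RBC minus HBC, of the 59 tested members with its standard error, grouped by role, with calls higher in RBCs in red, calls higher in HBCs in blue and other members in grey, and dotted lines at the 2-fold minimum. Receptors and ligands span -6.56 to 6.32, whereas all TRAF adaptor genes lie between -0.61 and 0.95.

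Among the other receptors, 5 were called higher in RBCs, 3 higher in HBCs and 3 were not called. The called shares were 45.5% and 27.3% of those tested, where 34.2% and 12.8% of all genes were called. Tnfrsf19 (TROY, a TRAF-binding receptor of stem cell compartments) was at 417 in the RBC library, against 21.7, 21.2 and 22.1 in the HBC libraries. RBCs were 19.2-fold higher (log2 change 4.20, SE 0.08, limma adjusted p = 0.000346), and the call held in every alternative run. Tnfrsf11a (RANK, the receptor of RANKL) was at 21.5 in RBCs, against 4.58, 3.49 and 4.01 in HBCs (log2 change 2.17, adjusted p = 0.00425), and its direction turned under quantile normalization (-0.13). Tnfrsf14 (HVEM, a receptor of LIGHT and lymphotoxin) was at 35.0 in RBCs, against 0, 0 and 2.69 in HBCs. It too entered only through its RBC level, and its call (adjusted p = 0.0426) was lost without HBC library 1 or 2 (0.128 each) and under 5 other settings, its adjusted p running from 0.000415 to 0.219 across settings. Tnfrsf13b (TACI) and Tnfrsf17 (BCMA), receptors of B and plasma cells, were listed at 0 in all 3 HBC libraries and stood at 10.2 and 4.58 in RBCs. Because a gene at 0 in HBCs passes the filter on low values only through its RBC level, these calls were fixed by the filter and are no test.

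Tnfrsf1b, the second TNF receptor, which is known mainly from leukocytes, was called higher in the cultures. It was at 14.5 in the RBC library, against 78.9, 80.5 and 83.6 in the HBC libraries, 5.57-fold lower in RBCs (log2 change -2.40, SE 0.08, limma adjusted p = 0.000987). Tnfrsf9 (4-1BB, the receptor of the Tnfsf9 product) was listed at 0 in RBCs and was at 4.52, 3.11 and 4.82 in HBCs. It entered the test only through its HBC level, and its call (adjusted p = 0.00959) was lost without HBC library 1 (0.0529), with a minimum of 5, where it was no longer tested, and with a pseudocount of 5, where its log2 change was -0.87, and the adjusted p ran from 0.0033 to 0.0529 over the alternatives. Ltbr, the lymphotoxin receptor that feeds the non-canonical branch, was at 1123 in RBCs, against 878.5, 945 and 899 in HBCs (log2 change 0.31, or -0.20 with the libraries' medians set equal). Tnfrsf18 (GITR) was at 105 in RBCs, against 165, 134 and 124 in HBCs, and Tnfrsf4 (OX40) at 13.6 in RBCs, against 8.52, 7.81 and 5.83 in HBCs. Neither was called except under quantile normalization, where both passed as higher in HBCs, and Tnfrsf8 and Tnfrsf13c were not tested.

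TRAF adaptors, which link receptors to ubiquitin ligases and kinases, had 0 of 7 members called under limma. Of all genes, 34.2% had a call towards RBCs and 12.8% a call towards HBCs. An unadjusted limma p under 0.05 was reached by 3 of the 7, and by 77.9% of all tested genes. Traf4, Traf7 and Traf3 also had a limma adjusted p under 0.05 (0.00772, 0.0173 and 0.0493) and missed only the 2-fold minimum. Traf7, the most abundant, was at 648 in the RBC library, against 785, 804 and 839 in the HBC libraries. Traf4, a member known from epithelial development, was at 374 in RBCs, against 547, 575 and 597 in HBCs (log2 change -0.61), and it passed the 2-fold minimum with the libraries' medians set equal (log2 change -1.12). Traf2, Traf3 and Traf6, which act downstream of TNF receptors, lymphotoxin or CD40 receptors and Toll-like receptors, ran from 164 to 255.5 in RBCs and from 177 to 234 in HBCs. Traf1, an NF-kB target mainly of leukocytes, was at 6.54 in RBCs, against 2.74, 6.15 and 3.91 in HBCs, and passed only under quantile normalization, as higher in HBCs. Traf5 was at 41.1 in RBCs, against 21.7, 14.5 and 28.6 in HBCs.

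Of the 4 IKK genes, 2 were called higher in the cultures and 0 higher in RBCs, where 12.8% and 34.2% of all genes were called. Ikbke (IKK epsilon, a kinase of the interferon response) was at 178 in the RBC library, against 523, 571 and 561 in the HBC libraries, 3.10-fold lower in RBCs (log2 change -1.62, SE 0.07, limma adjusted p = 0.00155). Chuk (IKK alpha, which also governs keratinocyte differentiation) was at 359 in RBCs, against 787, 742 and 762 in HBCs, 2.13-fold lower (log2 change -1.09, SE 0.04, adjusted p = 0.00144). It fell short of the 2-fold minimum on unscaled deposited values (-0.98) and at equal sums (-0.99). Ikbkb (IKK beta, the main kinase of the canonical branch) was at 374 in RBCs, against 282, 286 and 271 in HBCs (log2 change 0.42, or -0.09 with the libraries' medians set equal). Ikbkg (NEMO, the regulatory subunit) was at 238, against 299, 286 and 291, and its exons overlap those of G6pdx on the opposite strand in GENCODE M21.

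Some regulators are themselves NF-kB targets, so the promoters were searched for the letters of an NF-kB site. RefSeq promoters (build GRCm38.p6, 250 bases before to 50 after a start) were matched by symbol for 55 of the 67 members and scanned on both strands for GGGA and TTCC with any 2 bases between them, a form of the NF-kB site. A looser form, GGG and TTCC with any 3 bases between them, includes every match of the first. The first was found in 4 of 55 members (7.27%) and in 1.63% of the 27025 genes with a promoter, and the looser form in 15 of 55 (27.3%) and in 6.31% of genes. A match is a description of letters and not a bound site. The starts shown are those of Nfkbia, Nfkb2, Tnfaip3 and Rel, regulators that held a match and whose log2 changes had different signs, with every match of the looser form in capitals.
Nfkbia (chr12:55492598-55492897, minus strand): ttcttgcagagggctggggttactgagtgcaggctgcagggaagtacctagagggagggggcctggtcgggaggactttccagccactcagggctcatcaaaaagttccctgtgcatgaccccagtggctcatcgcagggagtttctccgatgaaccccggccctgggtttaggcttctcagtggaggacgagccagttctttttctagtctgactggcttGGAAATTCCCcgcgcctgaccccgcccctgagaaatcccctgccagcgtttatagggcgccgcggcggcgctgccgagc
Nfkb2 (chr19:46305445-46305744, plus strand): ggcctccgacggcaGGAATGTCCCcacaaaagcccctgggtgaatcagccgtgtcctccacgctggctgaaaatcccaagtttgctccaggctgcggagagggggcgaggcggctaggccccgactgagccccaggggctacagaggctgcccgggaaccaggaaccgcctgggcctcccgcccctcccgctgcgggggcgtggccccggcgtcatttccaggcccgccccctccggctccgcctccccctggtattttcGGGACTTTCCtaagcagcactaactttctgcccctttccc
Tnfaip3 (chr10:19015361-19015660, minus strand): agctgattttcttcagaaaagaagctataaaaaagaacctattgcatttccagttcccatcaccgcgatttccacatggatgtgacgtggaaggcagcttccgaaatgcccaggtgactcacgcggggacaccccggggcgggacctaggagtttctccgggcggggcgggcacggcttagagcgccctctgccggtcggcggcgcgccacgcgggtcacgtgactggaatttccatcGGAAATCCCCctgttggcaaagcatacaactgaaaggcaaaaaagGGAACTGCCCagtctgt
Rel (chr11:23770920-23771219, minus strand): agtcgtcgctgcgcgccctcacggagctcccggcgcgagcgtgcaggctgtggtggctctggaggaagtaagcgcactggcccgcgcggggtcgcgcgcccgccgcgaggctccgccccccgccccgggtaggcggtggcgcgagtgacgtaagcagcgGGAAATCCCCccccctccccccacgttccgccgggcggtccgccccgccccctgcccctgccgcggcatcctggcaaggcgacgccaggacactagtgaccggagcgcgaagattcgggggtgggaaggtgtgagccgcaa

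In Nfkbia the match began 29 bases before the start, and at this start of Tnfaip3, which has 2 starts with a match, at 12 bases before it and 33 bases after it. At this start of Nfkb2, which has 3 starts with a match, matches began 236 bases before and 10 bases after the start, and in Rel 91 bases before it. Of these genes, Rel was called higher in RBCs, Nfkb2 was called higher in HBCs, and Nfkbia and Tnfaip3 were not called, with log2 changes of 0.92 and -0.74. Among the 15 members with the looser match, Rel, Nfkbid and Tnfrsf25 were called higher in RBCs. Nfkb2, Chuk, Tnfaip8l1 and Tnfrsf9 were called higher in HBCs, and the other members were not called. Over all genes, 34.2% had a call towards RBCs and 12.8% a call towards HBCs. Tnfrsf25 entered the test only through its RBC level and Tnfrsf9 only through its HBC level, which bears on their calls.

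The 5 NF-kB subunit genes had 1 call in each direction and 3 members not called. Rel (c-Rel, a subunit known mainly from lymphocytes) was at 139.5 in the RBC library, against 37.5, 38.8 and 43.3 in HBC libraries 1, 2 and 3. RBCs were 3.50-fold higher (log2 change 1.78, SE 0.12, limma adjusted p = 0.00371). Nfkb2 was at 219 in the RBC library, against 489, 541 and 499 in the HBC libraries, 2.32-fold lower in RBCs (log2 change -1.21, SE 0.08, adjusted p = 0.0032). Both calls held in every alternative run. Its partner Relb was at 159 in RBCs, against 265, 296 and 280 in HBCs, under the minimum (log2 change -0.81) but past it with the libraries' medians set equal (-1.31) and under quantile normalization (-1.17). The canonical pair was more even, with Rela at 482.5 in RBCs, against 421, 433 and 450 in HBCs, and Nfkb1 at 638 in RBCs, against 459.5, 486 and 471 in HBCs. Their log2 changes of 0.15 and 0.43 turned to -0.35 and -0.07 with the libraries' medians set equal.

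Of the 6 genes of IkB proteins and relatives, 2 passed as higher in RBCs (33.3%, close to the 34.2% of all genes) and 0 as higher in HBCs. Nfkbia (IkB alpha, the inhibitor that NF-kB resupplies after each activation) was the most abundant member in the RBC library. It was at 1835 there, against 930, 979 and 1009 in the HBC libraries, 1.89 times the HBC mean and under the minimum (log2 change 0.92, SE 0.06, limma adjusted p = 0.0034). It passed the minimum with equal sums (log2 change 1.02), under quantile normalization (1.24) and with values as deposited (1.03), though it was not called in the last. Nfkbiz (IkB zeta, a nuclear cofactor that promotes a subset of NF-kB targets in epithelia) was at 763 in the RBC library, against 309, 306 and 306 in the HBC libraries. RBCs were 2.48-fold higher (log2 change 1.31, SE 0.02, adjusted p = 0.000126), or under the minimum with the libraries' medians set equal (0.81). Nfkbid (another nuclear IkB) was at 34.8 in RBCs, against 7.71, 8.25 and 9.18 in HBCs, 4.16-fold higher (log2 change 1.94, adjusted p = 0.00369), and its direction turned under quantile normalization (-0.06). Nfkbib was at 209 in RBCs, against 257, 299 and 277 in HBCs, Nfkbie at 80.1, against 61.8, 50.4 and 64.8, and the more distant Nfkbil1 at 243.5, against 232, 207 and 236. None of these last members was called.

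The genes with a Tnfaip symbol shared no single direction, with 1 of 7 tested called higher in RBCs and 2 called higher in HBCs. These were 14.3% and 28.6%, where 34.2% and 12.8% of all genes were called. Tnfaip3 (A20, a ubiquitin-editing enzyme that ends NF-kB signalling) was at 300 in the RBC library, against 496, 500 and 509 in the HBC libraries, whose mean was 1.67 times the RBC value (log2 change -0.74, SE 0.02, limma adjusted p = 0.000833). It passed the 2-fold minimum only with the libraries' medians set equal (log2 change -1.25). Tnfaip2 was at 175 in RBCs, against 1005, 993 and 987.5 in HBCs, 5.70-fold lower (log2 change -2.50, SE 0.02, adjusted p = 2.9e-05). Tnfaip8l1 was at 11.6 in RBCs, against 106, 113 and 110 in HBCs, 9.49-fold lower (log2 change -3.14, SE 0.08, adjusted p = 0.000589). Both stayed called under every alternative run. Tnfaip8l2 (TIPE2, a brake on immune cell activation) was at 6.05 in RBCs, against 0, 0 and 1.01 in HBCs. It entered the test only through its RBC level, and its call (adjusted p = 0.0406) was lost under 7 of the 11 alternatives that tested it, among them without HBC library 1 or 2 (0.124 each), within a range of 0.00033 to 0.573. Tnfaip1 and Tnfaip8 were at 672 and 481 in RBCs and averaged 840 ± 34.6 and 297 ± 9.26 in HBCs (SD, n = 3). Tnfaip8l3 was below 2 throughout and Tnfaip6 was not tested.

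Ratios between members of 1 library do not depend on a scaling that divides each library by 1 factor, though quantile normalization can move them. The ratio of Nfkb2 to Nfkb1 was 0.344 in the RBC library, against 1.06, 1.11 and 1.06 in HBC libraries 1, 2 and 3. For Relb to Rela it was 0.330 in RBCs, against 0.630, 0.684 and 0.623 in HBCs, and for Chuk to Ikbkb 0.959, against 2.79, 2.59 and 2.81. Each of these 3 ratios of a non-canonical gene to its canonical counterpart was thus below all 3 HBC ratios in the RBC library. Rel to Rela went the other way, at 0.289 in RBCs, against 0.0892, 0.0894 and 0.0963 in HBCs. Among the feedback inhibitors, Nfkbia to Rela was 3.8 in RBCs, against 2.21, 2.26 and 2.24 in HBCs, whereas Tnfaip3 to Nfkbia was 0.163, against 0.534, 0.511 and 0.504. The widest gap was that of Tnfrsf12a to Tnfrsf1a, at 0.321 in RBCs, against 11.1, 10.3 and 11.3 in HBCs, among the 11 ratios computed. No test was made of these ratios, since an exact permutation test of 1 library against 3 cannot give a one-sided p below 0.25.

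**Figure D3:**
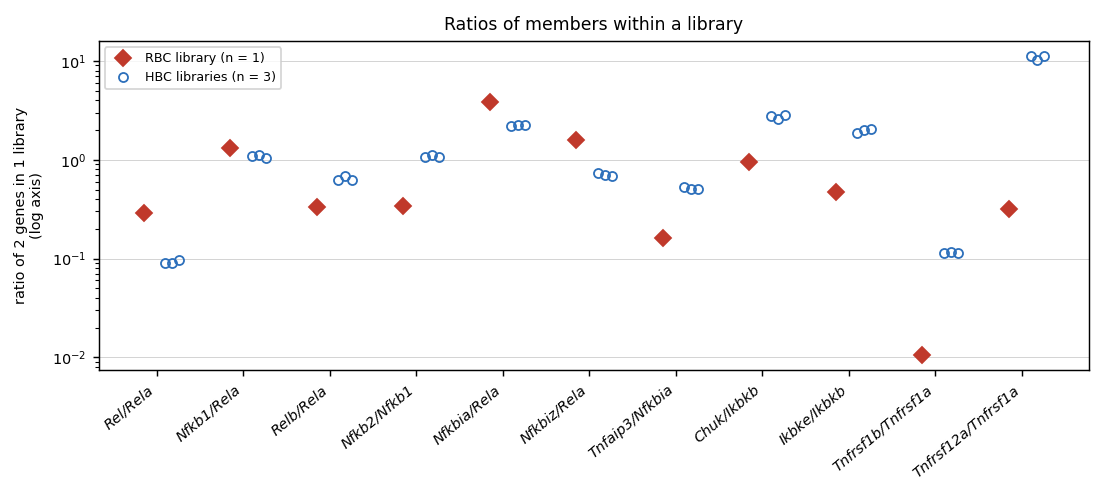
Ratio of the depth-scaled FPKM of 2 members within the same library, on a log axis, with the RBC library as a red diamond to the left and the 3 HBC libraries as blue circles. The HBC libraries lie close together in every ratio, from 0.504 to 0.534 for Tnfaip3 to Nfkbia, where the RBC library is at 0.163.

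TNF superfamily genes that carry other symbols, and so fall outside the rule, had 6 of 9 tested called towards RBCs and 1 towards HBCs. The shares were 66.7% and 11.1%, where 34.2% and 12.8% of all genes were called. Of the 6, 3 entered the test only through their RBC level, among them Edar. Where both groups were at 1 or more, 3 of 6 were called higher in RBCs, as 24.0% of all such genes were. Several belong to ectodysplasin signalling, which shapes skin appendages and glands. Its ligand Eda was at 321 in the RBC library, against 13.24, 13.48 and 12.89 in the HBC libraries (limma adjusted p = 0.000429). The receptor Edar was at 226 in RBCs and listed at 0 in all HBC libraries, and the adaptor Edaradd was at 64.5, against 4.12, 4.37 and 3.61. The related receptor Eda2r was the gene called higher in the cultures, at 16.3 in RBCs, against 588, 593 and 616 in HBCs (log2 change -5.12, adjusted p = 4.55e-05). Ngfr, a death-domain receptor also used as a basal cell marker, was at 768.5 in RBCs, against 239, 243 and 239 in HBCs (log2 change 1.67, adjusted p = 0.000107).

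Signalling proteins close to the receptors had 8 of 41 tested called higher in RBCs (19.5%, and 34.2% of all genes), 8 higher in HBCs (19.5%, and 12.8% of all genes) and a median log2 change of 0.09. Towards the cultures, the necroptosis effector Mlkl was at 21.0 in RBCs, against 352, 332 and 322.5 in HBCs (limma adjusted p = 0.000307), the ubiquitin ligase Traip at 17.1, against 74.9, 71.8 and 69.0, and the epithelial scaffold Card14 at 4.51, against 18.3, 22.0 and 21.7. Towards RBCs, Irak3, a brake on Toll-like receptor signalling, was at 45.8, against 1.68, 4.05 and 2.66 in HBCs, Peli2 at 71.6, against 8.44, 8.10 and 12.1, and Traf3ip3, a gene of lymphocytes, at 3.75, against 0 or a value that is in effect 0. Traf3ip3 entered the test only through its RBC level. With both groups at 1 or more, 7 of 40 of these signalling genes were called higher in RBCs (17.5%, and 24.0% of all such genes). Another 8 were called higher in HBCs (20.0%, and 14.4% of all such genes). Of 27 tested genes of the ubiquitin machinery, 2 passed as higher in RBCs (7.41%, and 34.2% of all genes) and 3 as higher in HBCs (11.1%, close to the 12.8% of all genes). Tnip3, which binds A20 and restrains NF-kB, was at 3.89 in RBCs, against 427.2, 392.2 and 427.6 in HBCs (log2 change -6.41, adjusted p = 0.000133), Optn at 60.3, against 270.5, 258.5 and 264, and Rnf11 at 1103, against 2408, 2433 and 2449. Btrc, the ubiquitin ligase subunit that recognises phosphorylated IkB, was at 189 in RBCs, against 42.1, 44.8 and 48.7 in HBCs, and Tnip2 at 291, against 89.5, 115 and 107. Of 16 nuclear cofactors and IkB-like genes, 3 were called higher in RBCs (Crebbp, Sirt1 and Ep300) and 2 higher in HBCs (Pdlim2 and Ppp4c). These were 18.8% and 12.5%, where 34.2% and 12.8% of all genes were called.

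Known NF-kB target genes were called in both directions, with a larger share higher in HBCs than among all genes. Of 49 tested, 15 were called higher in RBCs (30.6%, against 34.2% of all genes), 21 higher in HBCs (42.9%, against 12.8% of all genes) and 13 were not called, although 6 of the 15 and 1 of the 21 entered the test only through the higher group. The median log2 change was -0.81, or -0.84 without the 6 genes listed at 0 in a group. Higher in the cultures were the cytokine Il1a, at 16.6 in RBCs, against 1757, 1636 and 1557 in HBCs (limma adjusted p = 0.000177), the neutrophil chemokine Cxcl5, at 81.0, against 3492, 3548 and 3698, and the prostaglandin synthase Ptgs2, at 48.1, against 2235, 2105 and 2076. Il1b, a cytokine of myeloid cells, and Cd83, of dendritic cells, were listed at 0 in all HBC libraries and stood at 171.5 and 45.8 in RBCs. Jun, an AP-1 subunit that many stimuli induce, was at 14400 in RBCs, against 437, 443 and 460 in HBCs (adjusted p = 4.62e-05). Myeloid markers were called higher in the RBC library as well (18 of 22, where 34.2% of all genes were), but 13 of the 18 entered the test only through RBCs. With both groups at 1 or more it was 5 of 9, and 24.0% of all such genes. The part of myeloid cells in these values was not tested. Most of these genes also respond to pathways other than NF-kB, and the lists were chosen with earlier results of these data known.

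**Figure D4:**
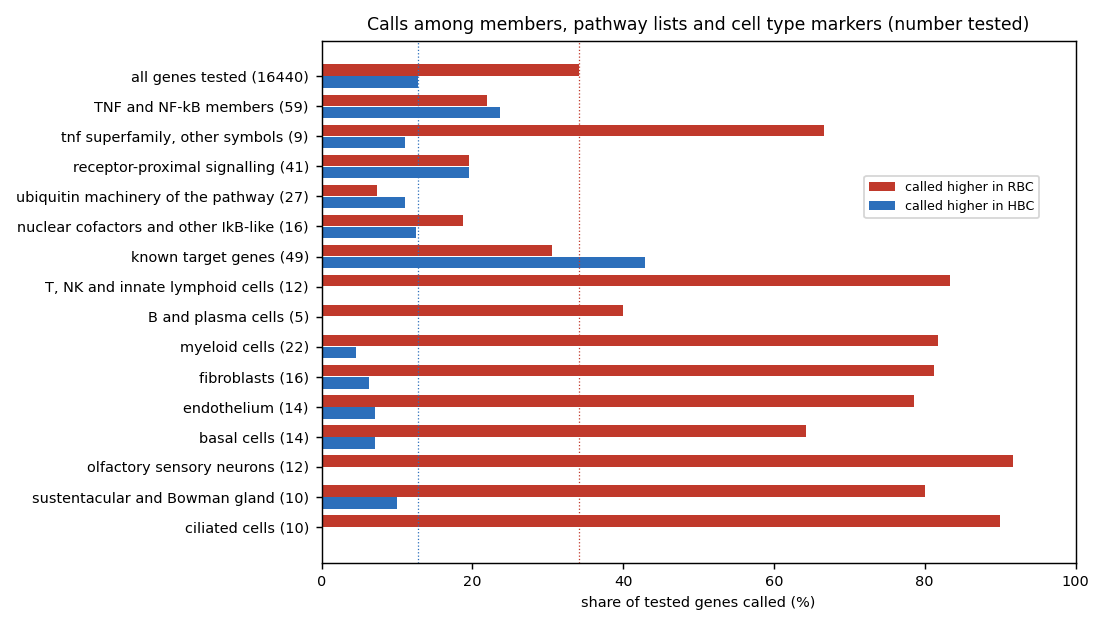
Percent of tested genes with a call towards RBCs (red bars) or towards HBCs (blue bars) for all genes, the TNF and NF-kB members, 5 pathway lists and 9 lists of cell type markers, with the number tested in brackets and dotted lines at the shares over all genes. Known target genes have the highest blue bar (42.9%), and the marker lists other than B and plasma cells lie at 64.3% to 91.7% in red.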

How the data were processed

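Strand setting and annotation are not given in the sources used. Cufflinks 2.2.1, Cuffnorm, STAR and mm9 are the tools and genome in the submitters' processing notes. The authors deposited 1 table of FPKM values for 23281 genes in 4 libraries. It holds no counts, and no depth could be recovered from the steps between low values, so each library's depth is unknown. Deposited FPKM summed to 9877606 in the RBC library and 8377232 to 10856000 in the HBC libraries, with 17713 genes above 0 in RBCs and 15093 to 15308 in HBCs.

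Each library was divided by a median-of-ratios factor, computed on 11134 genes that reached 10 in all 4 libraries. log2(scaled FPKM + 1) was fitted with limma 3.58.1 (R 4.3.3) over 16440 genes, with the variance trend, two-sided, after a check on simulated data. The simulation drew every library from the HBC means and spreads. It therefore could not check the assumption that the RBC library varies as the HBC libraries do. A fold change on this scale understates that of low genes. Residual variance rests on the 3 HBC libraries. The alternatives were other scalings, pseudocounts of 0.1 and 5, a minimum of 5 or none, no variance trend, and leaving out each HBC library. Named genes were the markers, subunits, IKK genes and classic ligands, the 10 called members with the largest change each way, the 8 most abundant in each group, and the 3 called genes with the largest change each way of each list. Other members were named to account for all of them, and library values of members outside this rule and of Lyz2, Ptprc and Ngfr were chosen after their values were seen. Members and lists were chosen with earlier results of these data known. Shared and overlapping transcript sequence was taken from GENCODE M21, and promoters from RefSeq (GRCm38.p6). No coordinates were converted between builds.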

Additional observations from a re-analysis of the deposited data

How the results depend on the processing

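Of the calls, 3 higher in RBCs (Rel, Tnfrsf11b and Tnfrsf19) and 11 higher in HBCs held under all 12 alternatives, leaving aside Tnfrsf13b, whose call the filter fixes. The count higher in RBCs was 13 and became 8 under quantile normalization, 6 of them shared, and it ran from 9 to 13 when single HBC libraries were left out. The count higher in HBCs was 14, or 13 without any one of these libraries, and 18 under quantile normalization or with the libraries' medians set equal. The median log2 change of all genes was 0.45, and -0.08 with equal medians, 0.55 with equal sums, 0.56 as deposited and -0.13 under quantile normalization. The share of all tested genes called higher in RBCs and in HBCs was 34.2% and 12.8%, and became 26.6% and 23.4% with equal medians and 19.1% and 22.5% under quantile normalization. Of the members tested, 18 turned sign under at least 1 scaling. With equal medians the members' median became -0.23, Ikbkb -0.0852, Ltbr -0.20, Nfkb1 -0.0702 and Rela -0.35 (log2). Under quantile normalization the members' median became -0.52, Ltb -0.69, Nfkbid -0.0571 and Tnfrsf11a -0.13. The cause was not tested. No paired analysis was possible, because the labels name no pairs and the RBC group holds 1 library. With 1 RBC library and no counts, neither the spread between RBC samples nor counting error is known.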
